A study of Homo sapiens with 9 samples.

Results

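Glycolysis genes and the genes of the hypoxia response were followed as a set of 39 named members across 9 RNA-seq libraries of K562, a human erythroleukaemia line derived from chronic myeloid leukaemia. The members were taken by symbol and run from glucose transport through the glycolytic steps in pathway order to lactate export, and then to the hypoxia-inducible factors (HIF) and genes known as their targets. All 39 were found among the 63677 gene IDs of the count lists, and all 39 passed the filter on low counts in each comparison. The libraries were 4 CRISPR clones carrying SRSF2 P95H (P9, P15, P22 and P38), the parental line (1 library), and 4 CRISPR clones with wild-type SRSF2 (W19, W33, W36 and W42, called WT clones). SRSF2 is an SR protein that binds exonic RNA and guides splice site choice, and P95H is a substitution of it found in myeloid neoplasms. The labels name no oxygen, glucose or drug treatment and no number of P95H alleles, and they leave unsaid whether the clones trace back to independent edits. With 1 library per clone, p-values reflect only how clones of a group vary, and the parental line has no replicate.

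Between 24546255 and 32593383 reads per clone, and 35477328 in the parental library, were assigned to genes. A count of 0 therefore allowed up to 0.0846 to 0.122 CPM (3 counts, counting error only). Levels are in CPM, that is, counts relative to a library total scaled by the trimmed mean of M-values (TMM), and differences are given on the log2 scale as P95H minus WT unless another pair is named. SRSF2 itself had 444 to 578 CPM in P95H clones and 448 to 507 CPM in WT clones, and counts per gene do not show which allele was read. All 10 erythroid markers were tested, and their summed level was 2199 to 6676 CPM in P95H clones, 3048.5 CPM in the parental line and 2255 to 4881 CPM in WT clones. The summed level of 5 lymphoid markers was 4.63 to 22.6 CPM in P95H clones and 13.3 to 33.1 CPM in WT clones. That of 7 fibroblast, epithelial and endothelial markers was 1.31 to 7.07 CPM in P95H clones and 2.76 to 10.9 CPM in WT clones. For 5 myeloid markers it was 32.5 to 91.6 CPM in P95H clones and 49.2 to 61.7 CPM in WT clones. MS4A1, KRT5 and PECAM1 had no read in any library. Of the WT clones, W33 differed from the others in 10.9% of genes.

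Glycolysis splits glucose into pyruvate in the cytosol, with a net gain of ATP and of NADH. When NADH is not passed to mitochondria, lactate dehydrogenase turns pyruvate into lactate, which leaves the cell through monocarboxylate transporters. The HIF factors are dimers of an oxygen-labile alpha subunit, encoded by HIF1A or EPAS1, and the stable beta subunit ARNT. Prolyl hydroxylases of the EGLN family mark the alpha subunit for destruction while oxygen is present. In low oxygen the dimer binds hypoxia response elements, whose core letters are ACGTG or GCGTG, near many genes of glucose use, blood vessel growth and mitochondrial turnover.

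Promoters of 5 members are shown first, so that the letters HIF dimers read can be looked for beside the levels. RefSeq promoters (GRCh38.p14, 250 bases before to 50 after each listed start) were matched for 34 of the 39 members, with 61 promoters. A gene can have several listed starts (7 for HK1 and for PFKM), and windows that overlap are counted separately. A listed start need not be the one used in K562. ANKRD37, CA9, ENO1 and PGAM1 are 4 of the 5 members that were lower in every P95H clone than in any WT clone (SLC2A3, the fifth, is named only). ENO2, whose groups overlapped, was the member that was higher in P95H clones at an unadjusted edgeR p under 0.05. The ANKRD37 promoter is at chr4:185396591-185396890 (plus strand), that of CA9 at chr9:35673678-35673977 (plus strand) and that of ENO1 at chr1:8878637-8878936 (minus strand). The PGAM1 promoter is at chr10:97427568-97427867 (plus strand) and that of ENO2 at chr12:6914330-6914629 (plus strand). Capitals mark every ACGTG or GCGTG on either strand, and a run of capitals longer than the motif is a pair of overlapping matches.
ANKRD37: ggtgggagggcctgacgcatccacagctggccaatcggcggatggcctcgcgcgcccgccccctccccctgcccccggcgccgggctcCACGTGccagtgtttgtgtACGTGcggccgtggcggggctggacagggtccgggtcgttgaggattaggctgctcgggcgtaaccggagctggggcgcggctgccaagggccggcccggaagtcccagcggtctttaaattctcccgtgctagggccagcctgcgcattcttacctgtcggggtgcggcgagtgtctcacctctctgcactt
CA9: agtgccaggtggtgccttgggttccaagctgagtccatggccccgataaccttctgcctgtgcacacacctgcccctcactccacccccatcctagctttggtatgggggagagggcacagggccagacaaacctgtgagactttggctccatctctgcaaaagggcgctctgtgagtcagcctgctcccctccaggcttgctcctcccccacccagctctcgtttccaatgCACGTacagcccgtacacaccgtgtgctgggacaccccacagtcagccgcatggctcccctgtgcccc
ENO1: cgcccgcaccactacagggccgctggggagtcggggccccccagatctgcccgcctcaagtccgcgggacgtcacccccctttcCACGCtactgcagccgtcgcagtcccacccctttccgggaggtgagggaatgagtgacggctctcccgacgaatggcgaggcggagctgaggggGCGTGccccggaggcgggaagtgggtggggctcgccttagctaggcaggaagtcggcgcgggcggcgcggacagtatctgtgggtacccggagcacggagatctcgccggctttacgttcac
PGAM1: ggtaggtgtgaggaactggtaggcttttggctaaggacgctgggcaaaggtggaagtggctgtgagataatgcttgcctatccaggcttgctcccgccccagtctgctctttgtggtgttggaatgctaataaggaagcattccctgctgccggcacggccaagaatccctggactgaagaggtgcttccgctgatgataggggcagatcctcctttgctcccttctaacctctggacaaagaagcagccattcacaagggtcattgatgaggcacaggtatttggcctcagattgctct
ENO2: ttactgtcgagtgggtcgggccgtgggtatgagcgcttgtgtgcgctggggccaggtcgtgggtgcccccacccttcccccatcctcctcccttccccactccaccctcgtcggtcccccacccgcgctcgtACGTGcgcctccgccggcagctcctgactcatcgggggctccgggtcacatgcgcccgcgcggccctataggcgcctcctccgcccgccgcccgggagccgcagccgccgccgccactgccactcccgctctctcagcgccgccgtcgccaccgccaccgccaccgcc
ANKRD37 held 2 runs, starting at -162 and -143 from the listed start, and CA9 held 1 run at -18. ENO2 held 1 ACGTG run at -118, ENO1 held 2 GCGTG runs at -166 and -72, and PGAM1 held neither motif. ACGTG, searched on both strands, was in 24 of the 61 member promoters (39.3%) and in 21.4% of all 35116 promoters in the table. GCGTG was in 24 member promoters (39.3%) and in 36.5% of all promoters. A match is a description of letters, not a bound site or a cause, and no match says only that these letters are not in this window.

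The main comparison asked whether the level of these genes differed between P95H and WT clones. No member passed edgeR's quasi-likelihood test at an adjusted p under 0.05, where 0% of the 18173 genes tested passed, and the smallest adjusted p among the members was 0.314 for PKM. DESeq2 also called 0 members, against 1.39% of all genes (0.791% higher and 0.597% lower), with PKM the nearest (DESeq2 adjusted p 0.0656). Limma-voom called 0 members too, against 0.325% of all genes (0.209% higher and 0.116% lower), again with PKM the nearest (limma-voom adjusted p 0.0737). At an unadjusted edgeR p under 0.05, 10 of the 39 members (25.6%) were lower in P95H clones, against 5.65% of all genes, and 1 (ENO2) was higher, against 6.07% of all genes. For 5 members the levels of P95H and WT clones were fully separate, against 8.57% of all genes in either direction. All 5 (SLC2A3, PGAM1, ENO1, CA9 and ANKRD37) were lower in P95H clones, which is 12.8% of the members against 4.63% of all genes. CA9, counted in this 12.8% and in the 25.6% above, had 1, 14, 5 and 8 reads in P9, P15, P22 and P38. It passed the low-count filter mainly through the WT clones (13, 32, 33 and 12 reads in W19, W33, W36 and W42). Its lower level is thus partly given by the filter and adds no support. No member was higher without overlap, against 3.94% of all genes. The estimate was below 0 for 25 of the 39 members (64.1%), against 47.9% of all genes tested. The median was -0.15 (-0.24 without P15), against 0.01 over all genes tested. Leaving out W33 weakened several estimates, with GPI at -0.22, ALDOA at -0.11, TPI1 at -0.11 and GAPDH at -0.25. These shares and medians describe a list and are not a test of it. In bulk RNA, fewer cells expressing these genes and less of their RNA per cell cannot be told apart.

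**Figure D1:**
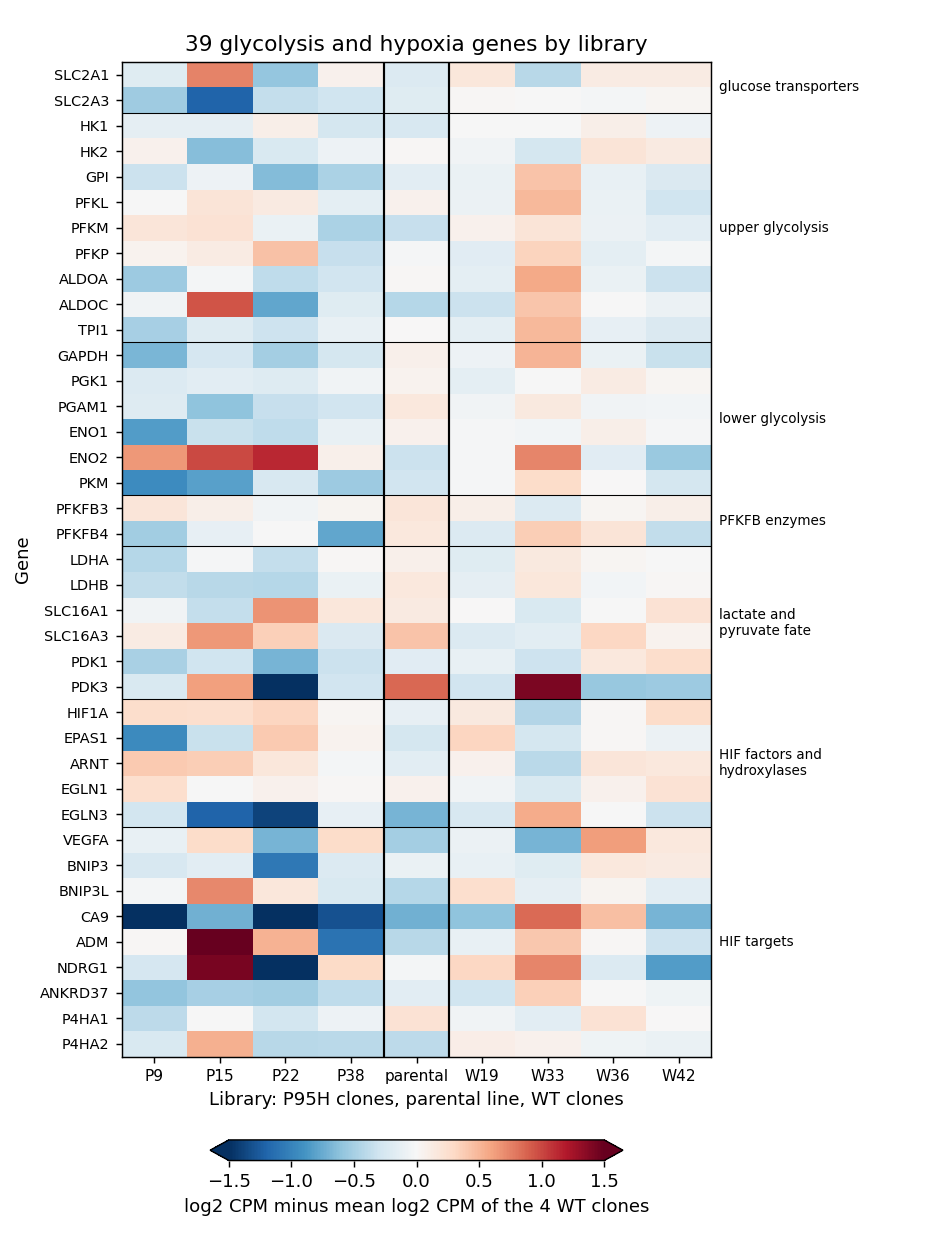
Level of each member (rows, grouped by role) in each library (columns), as log2 CPM minus the mean log2 CPM of the 4 WT clones, with colours ending at 1.5 in either direction. The P95H columns are mostly blue in the rows of lower glycolysis, where ENO2 is the exception, and W33 is red through most of upper glycolysis.

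Glucose enters K562 through facilitative transporters, of which SLC2A1 (GLUT1) and SLC2A3 (GLUT3) are members. SLC2A3 had 89.3, 56.2, 101 and 105 CPM in P9, P15, P22 and P38, 114 CPM in the parental line, and 131, 128, 127 and 132 CPM in W19, W33, W36 and W42. Every P95H clone lay below every WT clone, with P15 the lowest, and the parental line lay between the groups. P95H clones differed by -0.55 (SE 0.18, edgeR adjusted p 0.334), and by -0.38 without P15. SLC2A1 had 135, 257, 103 and 160.4 CPM in P9, P15, P22 and P38, and 173, 115, 168 and 167 CPM in W19, W33, W36 and W42. The groups overlapped widely, and the estimate of 0.08 (SE 0.26) became -0.22 without P15, the highest clone. Set per kilobase of exon, SLC2A3 made up 33.6, 14.4, 43.0 and 33.4% of the pair in P9, P15, P22 and P38, against 36.7 to 46.1% in the WT clones.

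Upper glycolysis, from glucose phosphorylation to the triose phosphates, had 6 of 9 members with an estimate below 0 and a median of -0.10. HK1, the main hexokinase of most cells, had 148 ± 15.5 CPM per kilobase in P95H clones and 159 ± 7.21 in WT clones (SD, n = 4 each). HK2, the inducible hexokinase, had 12.1 ± 2.38 CPM per kilobase in P95H clones and 13.9 ± 1.94 in WT clones. HK1 differed by -0.10 (SE 0.10) and HK2 by -0.20 (SE 0.16). GPI, which converts glucose-6-phosphate to fructose-6-phosphate, had 283, 336, 226 and 255 CPM in P9, P15, P22 and P38, against 330.2, 477, 329 and 305 CPM in W19, W33, W36 and W42. The highest GPI value was that of W33, P15 overlapped the WT clones, and the estimate of -0.38 (SE 0.17, edgeR adjusted p 0.415) was -0.22 without W33.

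The phosphofructokinase subunits, which form the enzyme of the committed step, showed small estimates. PFKL had 158, 180.4, 174 and 143 CPM in P9, P15, P22 and P38, 166 CPM in the parental line, and 149, 222, 148 and 129 CPM in W19, W33, W36 and W42. The PFKL estimate was 0.03 (SE 0.17, edgeR adjusted p 0.958), or 0.21 without W33, which was above every other library. PFKM, the muscle-type subunit, differed by -0.01 (SE 0.16) and PFKP, the platelet-type subunit, by 0.10 (SE 0.18), or 0.21 without W33. PFKM shares 628 bases of exon with SENP1 on the other strand. SENP1 held 12544 reads over the 9 libraries, against 10836 for PFKM, and its part in the PFKM values was not tested.

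ALDOA, the aldolase that splits the fructose bisphosphate, had 928, 1329, 1042 and 1116 CPM in P9, P15, P22 and P38, 1374 CPM in the parental line, and 1227, 2019, 1267 and 1083 CPM in W19, W33, W36 and W42. The groups overlapped, W33 was the highest library, and the estimate of -0.33 (SE 0.19, edgeR adjusted p 0.523) was -0.11 without W33. TPI1, which interconverts the triose phosphates, had 334, 411, 378 and 435 CPM in P9, P15, P22 and P38, 472 CPM in the parental line, and 425, 656, 433 and 404 CPM in W19, W33, W36 and W42. Its groups overlapped too, and the estimate of -0.29 (SE 0.16, edgeR adjusted p 0.511) was -0.11 without W33. TPI1 is less certain, since reads assigned to its 4 named pseudogenes came to 68.0% of its own reads, and with them added the estimate was -0.25. ALDOC, the aldolase known from brain, was spread over 32.4 to 107 CPM in P95H clones and 44.5 to 74.1 CPM in WT clones, with P15 the highest library.

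In lower glycolysis, from glyceraldehyde-3-phosphate to pyruvate, 5 of 6 members had an estimate below 0 and the median was -0.36. ENO1, the enolase of most cells, had 1767, 2491, 2422 and 2917 CPM in P9, P15, P22 and P38, 3296 CPM in the parental line, and 3098, 3059, 3341 and 3097 CPM in W19, W33, W36 and W42. All 4 P95H clones were below all 4 WT clones, P9 being the lowest, and the parental line was inside the WT range. P95H clones differed by -0.38 (SE 0.14, edgeR adjusted p 0.359), and by -0.27 without P9.

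PGAM1, the phosphoglycerate mutase of most tissues, had 74.7, 56.5, 67.7 and 70.4 CPM in P9, P15, P22 and P38, 95.4 CPM in the parental line, and 82.4, 94.6, 82.8 and 83.4 CPM in W19, W33, W36 and W42. The groups did not overlap, and the parental line was the highest library. The difference was -0.34 (SE 0.11, edgeR adjusted p 0.334), and it ran between -0.40 and -0.26 when single clones were left out.

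PKM, which encodes the pyruvate kinase of most cells apart from liver and red cells, had 477, 523, 778 and 629 CPM in P9, P15, P22 and P38, 757 CPM in the parental line, and 908, 1111, 926 and 766 CPM in W19, W33, W36 and W42. Of the P95H clones, only P22 reached the WT range, by passing W42, and the parental line was just under that range. The difference of -0.61 (SE 0.17, edgeR adjusted p 0.314) had the smallest p among the members and stayed between -0.77 and -0.52 when single clones were left out. Counts per gene do not separate the mutually exclusive PKM exons. HNRNPA1, HNRNPA2B1, PTBP1 and SRSF3, which are known to act on that exon choice, differed by 0.08, -0.10, 0.03 and -0.10, and none passed the test.

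GAPDH, the dehydrogenase of the first step after the triose phosphates, had 1029.5, 1388, 1166 and 1385 CPM in P9, P15, P22 and P38, against 1568, 2361, 1548 and 1317 CPM in W19, W33, W36 and W42. P15 and P38 were above W42, the lowest WT clone, and W33 was the highest library. The estimate was -0.44 (SE 0.18, edgeR adjusted p 0.392), and -0.25 without W33. GAPDH is less certain, since 62 named pseudogenes held 47.0% as many reads as the gene, and an antisense gene overlapping it by 422 bases held 329717 reads over the 9 libraries, against 393648 for GAPDH. PGK1, which makes the first ATP of the pathway, averaged 473 ± 22.8 CPM in P95H clones and 527 ± 40.5 CPM in WT clones (SD, n = 4 each), a difference of -0.15 (SE 0.09).

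ENO2, the enolase known from neurons, serves the same step as ENO1 and had an estimate above 0. It had 42.04, 53.1, 58.5 and 28.1 CPM in P9, P15, P22 and P38, 21.4 CPM in the parental line, and 26.4, 44.4, 23.7 and 18.2 CPM in W19, W33, W36 and W42. W33 overlapped the P95H clones and the other WT clones were below all of them. The difference was 0.70 (SE 0.29, edgeR adjusted p 0.400), and 1.0 without W33.

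Isoenzymes that serve the same step were compared as shares of their summed CPM per kilobase of exon. Exon length joins the exons of every listed transcript of a gene, so the size of a share depends on it. ENO2 was 2.8, 2.6, 2.9 and 1.2% of the enolase pair in P9, P15, P22 and P38, and 1.0, 1.8, 0.9 and 0.7% in W19, W33, W36 and W42, so the pair remained mostly ENO1. LDHA was 34.4 to 41.9% of LDHA plus LDHB in P95H clones and 34.8 to 36.7% in WT clones. These shares rest on exon lengths of 6210 bases for LDHA and 2983 for LDHB. In CPM, mean LDHA was above mean LDHB, with 1215 against 968 in P95H clones and 1386 against 1214 in WT clones. The shares therefore do not show which subunit is the main one. HIF1A was 40.2 to 62.2% of HIF1A plus EPAS1 in P95H clones, with P9 the highest, and 38.4 to 47.6% in WT clones.

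In the pyruvate kinase pair the shares of the groups were apart. PKLR, the pyruvate kinase of liver and red cells, is not among the 39 members and was taken from the list of other glycolysis genes. It had 144.6, 63.6, 27.1 and 33.2 CPM in P9, P15, P22 and P38, 14.6 CPM in the parental line, and 8.84, 30.0, 8.95 and 11.3 CPM in W19, W33, W36 and W42. P22 was below W33, so the levels overlapped, and P95H clones differed by 2.20 (SE 0.59, edgeR adjusted p 0.312). As a share of PKM plus PKLR per kilobase, PKLR was 45.0, 24.7, 8.61 and 12.5% in P9, P15, P22 and P38, 4.96% in the parental line, and 2.57, 6.81, 2.55 and 3.85% in W19, W33, W36 and W42. Every P95H clone had a higher share than every WT clone, with means of 22.7 ± 16.4% and 3.94 ± 2.01% (SD, n = 4 each). The size of the share depends on the exon length used, which for PKM joins all its listed transcripts (8571 bases). Without division by length, P9 had 477 CPM of PKM and 144.6 CPM of PKLR. PKM had the smallest p of the members and PKLR the smallest p of its list, in opposite directions. Their share therefore restates these differences, taken from the same data, and adds no support to them. The summed erythroid markers were 5722, 6676, 2199 and 4447 CPM in P9, P15, P22 and P38, and 2255, 4881, 2367 and 2988 CPM in W19, W33, W36 and W42, and their part in the PKLR values was not tested.

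**Figure D2:**
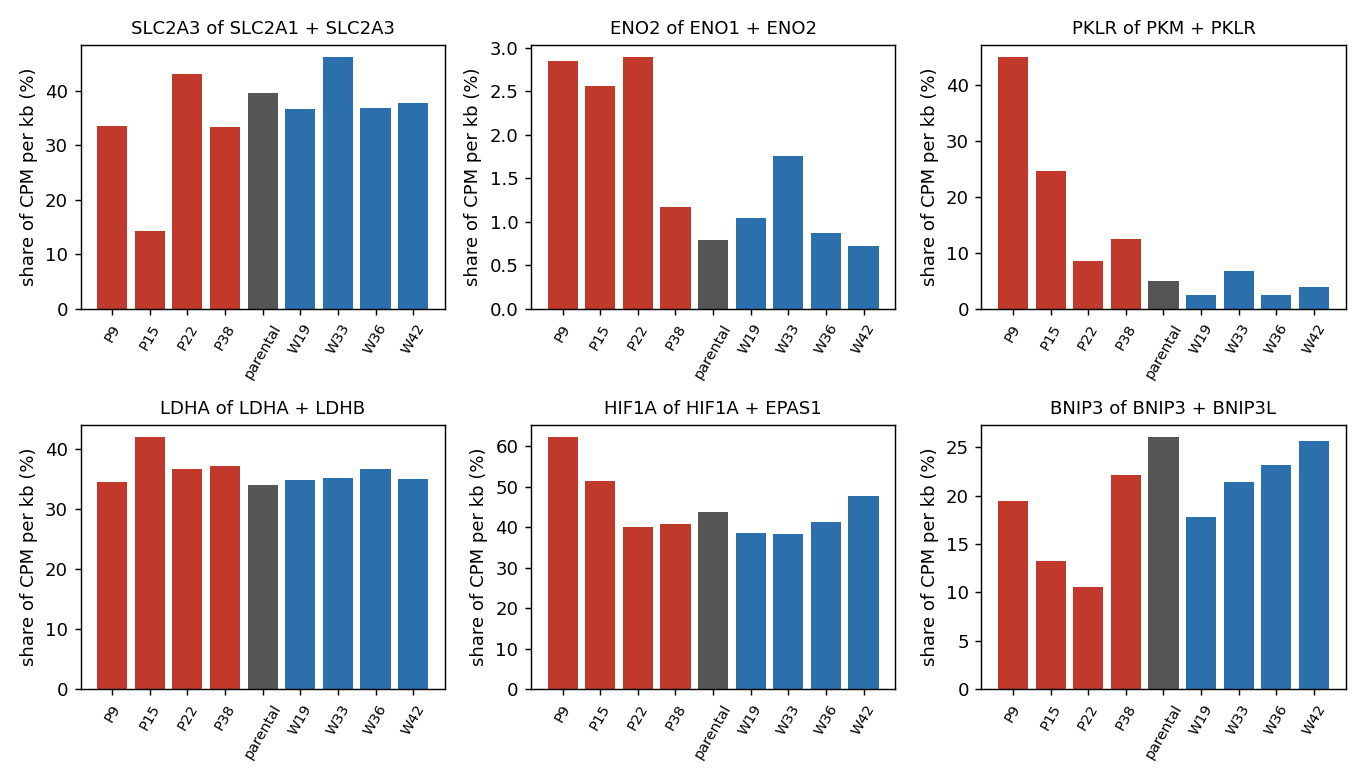
Share of the first-named gene of 6 pairs in their summed CPM per kilobase of exon, in percent, with P95H clones in red, the parental line in grey and WT clones in blue. Exon length joins all listed transcripts of a gene, so the size of a share depends on it. In the pyruvate kinase pair the groups do not overlap, with PKLR at 8.61 to 45.0% in P95H clones and 2.55 to 6.81% in WT clones. That pair joins the genes with the smallest p of their lists, which differed in opposite directions.

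PFKFB3 and PFKFB4 make and remove fructose-2,6-bisphosphate, the activator of phosphofructokinase. PFKFB3 averaged 23.4 ± 1.61 CPM in P95H clones and 22.4 ± 2.02 CPM in WT clones (SD, n = 4 each). PFKFB4 averaged 29.5 ± 7.13 CPM in P95H clones and 37.76 ± 8.96 CPM in WT clones, with overlapping groups and a difference of -0.34 (SE 0.21), or -0.22 without W33 or without P38.

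Of the 6 members that set the fate of pyruvate and lactate, 4 had an estimate below 0. LDHB, the lactate dehydrogenase subunit of heart, had 936, 907, 896 and 1132 CPM in P9, P15, P22 and P38, 1355 CPM in the parental line, and 1100.5, 1357, 1173 and 1226 CPM in W19, W33, W36 and W42. P38 passed W19 and the other P95H clones were below all WT clones. The difference was -0.32 (SE 0.11, edgeR adjusted p 0.347). LDHA, the subunit of muscle and a known HIF target, averaged 1215 ± 189 CPM in P95H clones and 1386 ± 129 CPM in WT clones, and its groups overlapped.

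PDK1, a kinase that switches off pyruvate dehydrogenase, had 20.5, 23.3, 17.7 and 22.9 CPM in P9, P15, P22 and P38, 25.5 CPM in the parental line, and 26.5, 23.1, 31.9 and 34.5 CPM in W19, W33, W36 and W42. W33 was just below P15, and otherwise the P95H clones were the lower ones. The difference was -0.45 (SE 0.16, edgeR adjusted p 0.347). Its paralogue PDK3 was near the limit of detection, with 0.0597 to 0.741 CPM in P95H clones and 0.289 to 1.33 CPM in WT clones, and its direction turned when W33 was left out (0.29).

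The lactate transporter SLC16A1 (MCT1) averaged 281 ± 88.0 CPM in P95H clones, with 401 CPM in P22, and 253 ± 31.7 CPM in WT clones. SLC16A3 (MCT4), the transporter of strongly glycolytic tissue, stayed at 2.13 to 3.95 CPM in P95H clones and 2.15 to 3.11 CPM in WT clones. Neither passed the test. SLC16A3 shares 482 bases of exon with CSNK1D on the other strand. CSNK1D held 40092 reads over the 9 libraries, against 763 for SLC16A3, and its part in the SLC16A3 values was not tested.

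Summed from transport to lactate export, the 21 glycolytic members had 9149, 11212, 10658 and 11608 CPM in P9, P15, P22 and P38, 13204 CPM in the parental line, and 12389, 15193, 13119 and 12134 CPM in W19, W33, W36 and W42. All 4 P95H clones were below all 4 WT clones and the parental line, and this also held for the sum without GAPDH and TPI1 (7786 to 9788 CPM against 10396 to 12176 CPM). As a share of reads assigned to genes, the sum was 0.948 to 1.15% in P95H clones and 1.24 to 1.39% in WT clones. ENO1 made up 29.4% of the net difference in the mean sum, GAPDH 17.9%, PKM 12.8%, ALDOA 11.6% and LDHB 9.65%. The sum is therefore carried by a few abundant genes, and it is given as a description with no test.

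**Figure D3:**
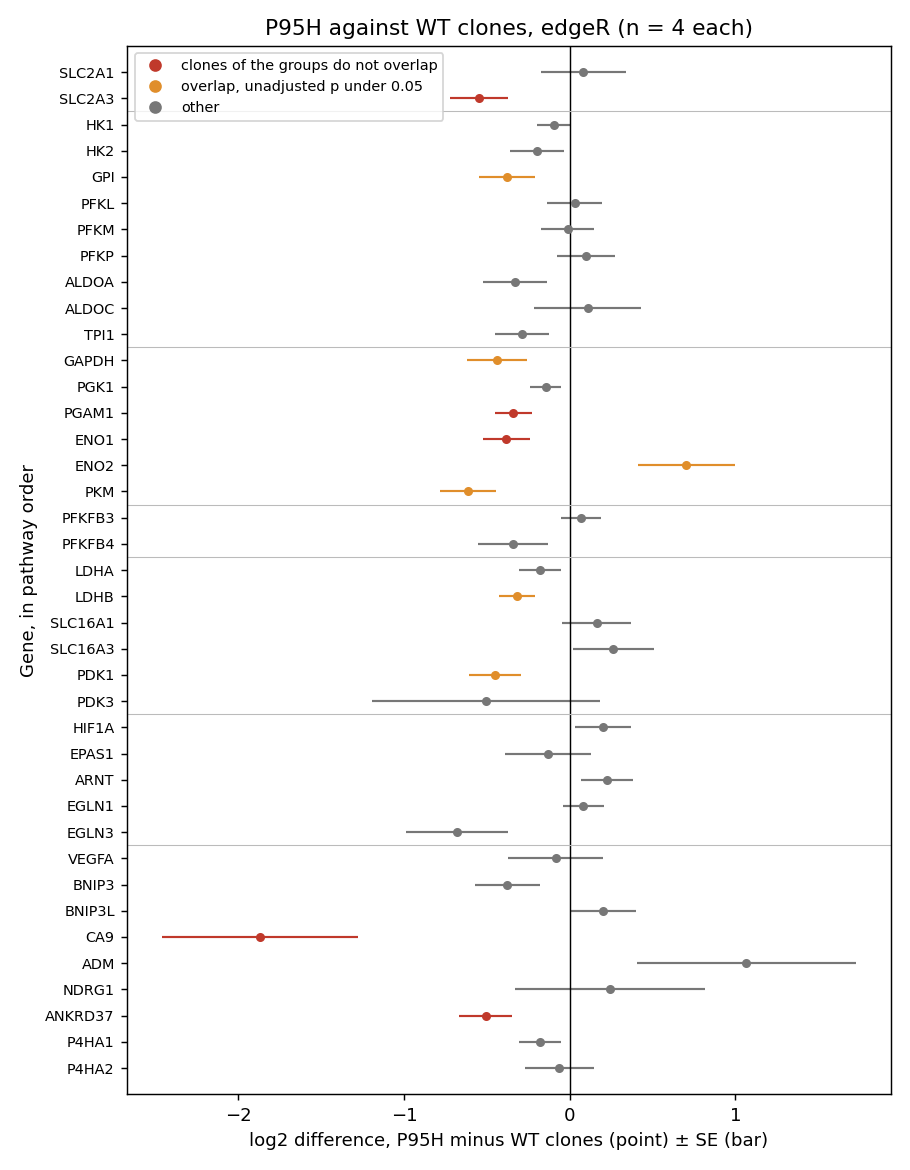
Difference of each member between P95H and WT clones on the log2 scale, with the standard error from the edgeR fit, in order of role (n = 4 each). Estimates below 0 mean lower in P95H clones, and ENO2 at 0.70 and CA9 at -1.87 lie at opposite ends of those with an unadjusted p under 0.05.

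The HIF factors and their hydroxylases showed no difference that passed the test. HIF1A averaged 22.9 ± 1.97 CPM in P95H clones and 20.05 ± 4.08 CPM in WT clones, a difference of 0.20 (SE 0.17) that was 0.069 without W33. EPAS1, which encodes HIF-2 alpha, averaged 36.2 ± 13.5 CPM in P95H clones, with 20.3 CPM in P9 and 52.0 CPM in P22, and 40.0 ± 7.09 CPM in WT clones. ARNT, the shared beta subunit, differed by 0.22 (SE 0.16), and by 0.10 without W33. EGLN1, the main oxygen-sensing hydroxylase, differed by 0.08 (SE 0.12), by 0.0085 without W33 and by 0.016 without P9. HIF proteins are set mainly by degradation, which RNA counts do not show. EGLN3, a hydroxylase that is itself induced by HIF, had 13.5, 7.04, 6.21 and 14.9 CPM in P9, P15, P22 and P38, against 13.8, 24.1, 16.3 and 13.1 CPM in W19, W33, W36 and W42. P9 and P38 overlapped the WT clones while P15 and P22 were below them, and the difference was -0.68 (SE 0.31, edgeR adjusted p 0.431).

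Among the 9 HIF targets, 6 had an estimate below 0 and 3 above, with a median of -0.08. CA9, a cell-surface carbonic anhydrase that is among the most oxygen-sensitive HIF targets, was barely detected. It had 1, 14, 5 and 8 reads in P9, P15, P22 and P38, 15 in the parental line, and 13, 32, 33 and 12 in W19, W33, W36 and W42. In CPM these were 0.0383, 0.432, 0.149 and 0.266 in the P95H clones, 0.432 in the parental line, and 0.473, 1.42, 1.06 and 0.442 in the WT clones. P15 was only just below W42, and the difference was -1.87 (SE 0.59, edgeR adjusted p 0.332), or -1.53 without W33. CA9 shares 643 bases of exon with ARHGEF39 on the other strand, and the kit does not mark strand. ARHGEF39 held 12139 reads over the 9 libraries, against 133 for CA9, and its part in the CA9 values was not tested.

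ANKRD37, an ankyrin repeat gene known as a HIF-1 target, had 9.15, 9.73, 9.55 and 10.6 CPM in P9, P15, P22 and P38, 12.4 CPM in the parental line, and 11.2, 17.7, 13.8 and 13.2 CPM in W19, W33, W36 and W42. The P95H clones lay close together and below every WT clone. The difference was -0.51 (SE 0.16, edgeR adjusted p 0.329), and -0.38 at its smallest with a clone left out. ANKRD37 shares 909 bases of exon with UFSP2 on the other strand. UFSP2 held 8894 reads over the 9 libraries, against 3119 for ANKRD37, and its part in the ANKRD37 values was not tested.

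**Figure D4:**
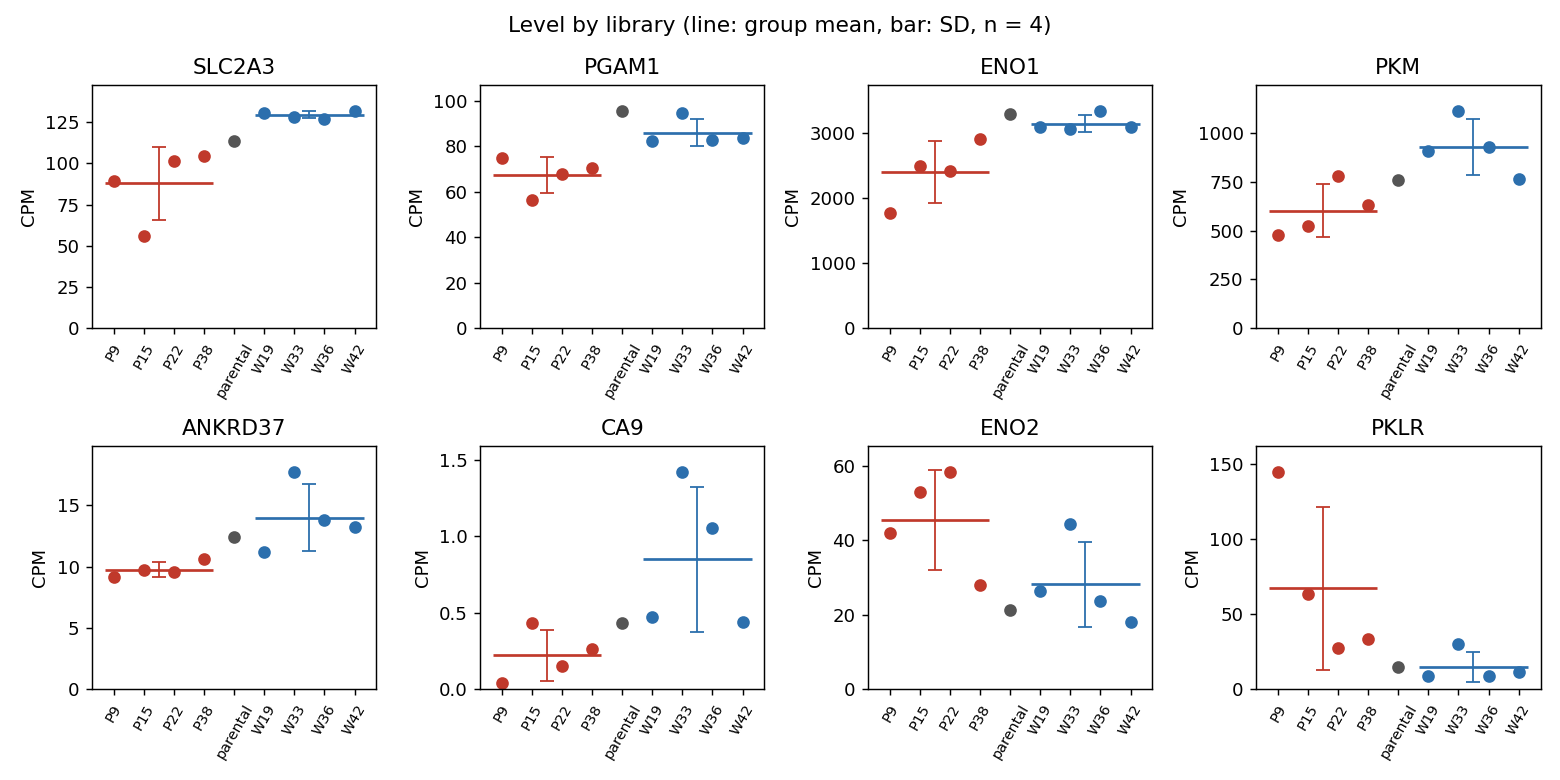
Level by library, in CPM, of SLC2A3, PGAM1, ENO1, PKM, ANKRD37, CA9, ENO2 and PKLR, with P95H clones (red) at the left, the parental line (grey) in the middle and WT clones (blue) at the right; lines are group means and bars are SD (n = 4). The groups do not overlap for SLC2A3, PGAM1, ENO1, ANKRD37 and CA9, and W33 overlaps the P95H clones for ENO2 and PKLR.

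The other targets had overlapping groups or a wide spread between clones. VEGFA, the vascular growth factor, had 92.9 to 184 CPM in P95H clones and 93.4 to 233 CPM in WT clones. BNIP3, a mitophagy receptor, had 26.4, 27.9, 14.9 and 27.2 CPM in P9, P15, P22 and P38, against 27.7 to 34.9 CPM in WT clones, and its 39 named pseudogenes held 88.5% as many reads as the gene. Its homologue BNIP3L, which clears mitochondria from maturing red cells, differed by 0.20 (SE 0.20), and by -0.019 without P15.

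ADM, which encodes the vasodilator adrenomedullin, had 0.332 to 4.35 CPM in P95H clones and 0.625 to 1.07 CPM in WT clones. Its estimate of 1.07 (SE 0.66) rested on P15, and was -0.05 without it. NDRG1, a stress-response gene, also peaked in P15 (10.7 CPM, against 1.19 to 4.82 CPM in the other P95H clones), and its estimate of 0.24 (SE 0.57) was -0.45 without P15 and 0.52 without W33. The collagen prolyl hydroxylase subunits P4HA1 and P4HA2 differed by -0.18 (SE 0.13) and -0.06 (SE 0.21), and P4HA2 by -0.34 without P15.

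The study's clones were also compared one by one within their group. Set against the other P95H clones, P9, P15, P22 and P38 had 0 members called by edgeR, where 0%, 0.00485%, 0.426% and 0% of all 20636 genes were called. The members with the smallest adjusted p in P15 were P4HA2 (63.0 CPM, against 34.0 ± 2.48 CPM in the other 3, edgeR adjusted p 0.197) and SLC2A3 (56.2 against 98.5 ± 8.11 CPM, 0.214). ADM was 4.35 CPM in P15, against 0.767 ± 0.417 CPM (edgeR adjusted p 0.258), ALDOC was 107 against 44.9 ± 11.04 CPM (0.282) and SLC2A1 was 257 against 133 ± 28.8 CPM (0.382). In P22, BNIP3 was 14.9 CPM, against 27.2 ± 0.766 CPM in the other P95H clones, a difference of -0.87 with an adjusted p of 0.140.

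Members were called in W33 among the WT clones. Set against W19, W36 and W42, W33 had 3 members that rose (PFKL, ALDOA and TPI1) and none that fell, which is 7.69% of the members. Of all genes 10.9% were called, 5.67% higher and 5.21% lower, so the members' share is near the background and is not a result about them. ALDOA was 2019 CPM in W33, against 1193 ± 96.8 CPM in the other WT clones (SD, n = 3), a difference of 0.76 (SE 0.18, edgeR adjusted p 0.0374). PFKL was 222 against 142 ± 11.4 CPM, a difference of 0.65 (SE 0.15, edgeR adjusted p 0.0346). TPI1 was 656 against 420.3 ± 14.9 CPM, a difference of 0.64 (SE 0.15, edgeR adjusted p 0.0332). All 3 calls were lost when W19, W36 or W42 was left out, with adjusted p between 0.0708 and 0.117, while the number of genes called in all dropped to 527 without W19 and to 0 without W36 or W42. W19, W36 and W42, each set against the other WT clones, had 0 members called, where 0%, 0% and 0.0194% of all genes were called.

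The parental line, set against the WT clones, had 0 members called, where 0.00485% of all genes were called. The median of the members relative to the WT mean was -0.10 in the parental library, against -0.23, -0.03, -0.31 and -0.19 in P9, P15, P22 and P38, and -0.08, 0.14, 0.01 and -0.06 in W19, W33, W36 and W42. The parental sum over the 21 glycolytic members, 13204 CPM, was inside the WT range of 12134 to 15193 CPM.

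Each member was also set beside the median of its neighbours on the chromosome, 10 expressed genes on each side (mean at least 5 CPM). In W33 the neighbours of ALDOA, TPI1 and PFKL stood at 0.30, 0.28 and 0.24 relative to the WT mean, where the genes themselves stood at 0.57, 0.48 and 0.49. In P9 the neighbours of ENO1 stood at -0.35 and ENO1 at -0.83. In P15 the neighbours of SLC2A3 stood at 0.27 and SLC2A3 at -1.20, and those of ADM at 0.48 and ADM at 2.36. The part of the surrounding region in these values was not tested.

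**Figure D5:**
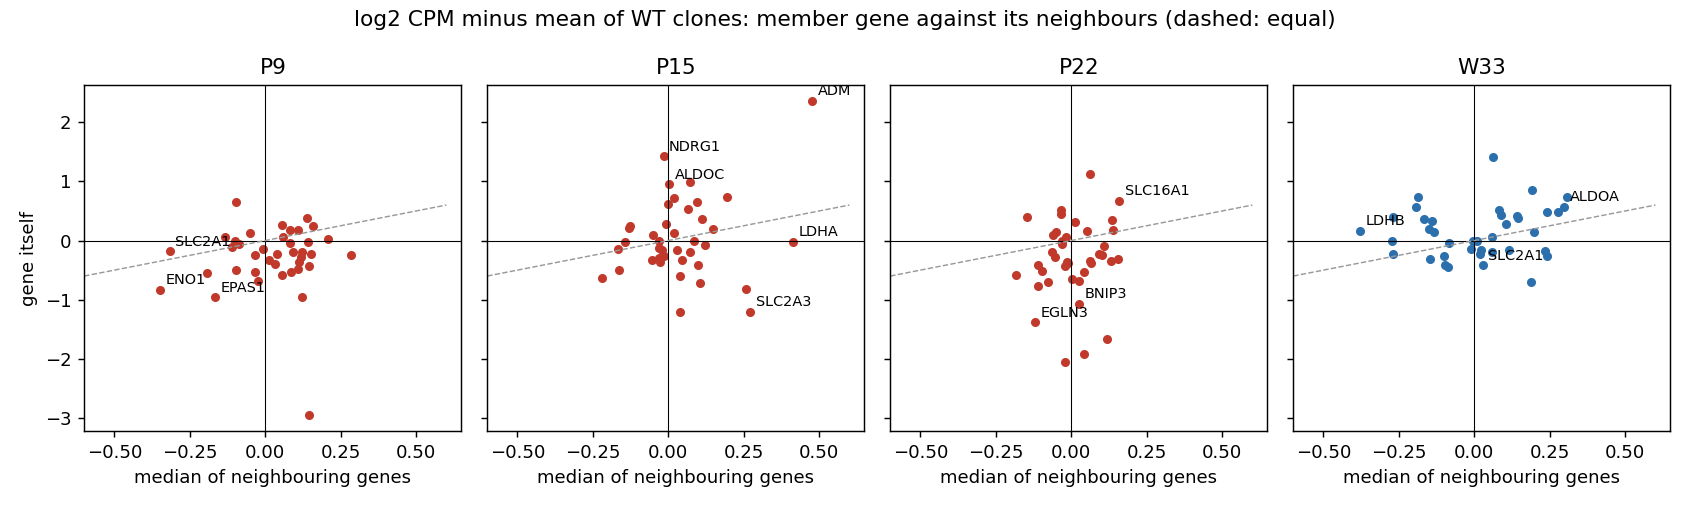
Level of each member in clones P9, P15, P22 and W33 (vertical axis, 1 panel per clone) against the median of its expressed neighbours in the same clone (horizontal axis), both as log2 CPM relative to the mean of the 4 WT clones, with a dashed line where they are equal. ENO1 in P9 and ALDOA in W33 lie in the same direction as their neighbours and further out, and SLC2A3 in P15 lies opposite to its neighbours.

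Leaving out a clone cannot make separate groups overlap, so the 5 members stay separate by construction, and no other member joined them without P9 or without W36. Without W33, 7 members were lower without overlap (against 7.56% of all genes) and ENO2 was higher without overlap (against 6.97%). Without P15, 9 members were lower without overlap, against 7.35% of all genes, and the added ones were GPI, PDK1, BNIP3 and P4HA2. With both W33 and P22 left out, 9 members were lower and 2 were higher without overlap, where the shares of all genes were 10.3% and 10.4%.

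Genes of neighbouring pathways, and the 4 factors of PKM exon choice named above, were listed by function, with earlier results of these data known. There were 95 genes in 7 lists, of which 82 were tested. None passed the edgeR test, 53 estimates were below 0 and 29 above, and at an unadjusted p under 0.05 there were 9 lower and 7 higher. Over all genes tested, 47.9% of estimates were below 0, and 5.65% were lower and 6.07% higher at that p. Groups did not overlap in 4.63% of all genes in the lower direction and in 3.94% in the higher direction. The counts given for these lists stand beside those shares and are not a test of the lists. Of the other glycolysis genes, 9 of 13 tested were below 0, with a median of -0.35. SLC2A8, an intracellular glucose transporter, had 10.1 ± 1.004 CPM in P95H clones and 14.0 ± 2.33 CPM in WT clones. TIGAR, a fructose-bisphosphatase that diverts glucose to the pentose phosphate pathway, had 1.39 ± 0.501 CPM in P95H clones and 2.53 ± 0.477 CPM in WT clones. For both, all P95H clones were below all WT clones, with edgeR adjusted p of 0.338 and 0.347. PFKFB2, a paralogue of PFKFB3 and PFKFB4 chosen after its values were seen, was the list's 1 gene higher without overlap, with 57.2 to 76.04 CPM in P95H clones and 35.5 to 55.6 CPM in WT clones, a difference of 0.44 (edgeR adjusted p 0.350).

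Of 11 genes of pyruvate entry into mitochondria, 7 were below 0. MPC1, a subunit of the mitochondrial pyruvate carrier, had 70.5 ± 6.23 CPM in P95H clones and 87.4 ± 5.42 CPM in WT clones, a difference of -0.30 (edgeR adjusted p 0.335), and PDHB, a pyruvate dehydrogenase subunit, differed by -0.19, both without overlap. PDK4, a kinase of the same complex, had 8.91 ± 9.74 CPM in P95H clones, with 23.5 CPM in P15, and 2.89 ± 1.66 CPM in WT clones. In the citric acid cycle, 14 of 16 genes were below 0, against 47.9% of all genes, with a median of -0.13. IDH3A and SUCLG1 differed by -0.31 and -0.27 without overlap, while CS, the citrate synthase, differed by 0.32. In the pentose phosphate pathway 5 of 7 genes tested were below 0, with RPIA, a pentose isomerase, at 0.31, PGLS at -0.24 and PGD at -0.16.

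Of 8 other HIF regulators tested, 6 were above 0, with CREBBP, a coactivator, at 0.29, VHL, the ubiquitin ligase subunit that recognises hydroxylated HIF, at 0.28 and RBX1, its RING partner, at -0.46. ARNT2 had no read in any library. Of 23 other HIF targets tested, 14 were below 0, with a median of -0.16. PLOD1, a collagen lysyl hydroxylase, had 142 ± 19.3 CPM in P95H clones and 198 ± 14.3 CPM in WT clones (SD, n = 4 each), and the groups did not overlap. Its difference of -0.47 (SE 0.12) had an edgeR adjusted p of 0.293. PPP1R3C, a glycogen-targeting phosphatase subunit, differed by 0.59 and STC2, a secreted glycoprotein, by -0.53, and both groups overlapped.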

How the data were processed

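RNA was measured in 9 K562 cultures: 4 SRSF2 P95H clones, the parental line and 4 WT clones. Libraries came from miRNeasy-purified, poly(A)-selected RNA with a TruSeq RNA kit on a HiSeq2000, per the labels' protocols. The authors deposited whole-number counts of reads for each Ensembl gene, not normalized. The submitters' processing notes name bcl2fastq, TopHat2 2.0.4, HTSeq 0.6.1p1 and GRCh37, and the strand setting is not given in the sources used here. Reads placed in no gene (47.6 to 49.1% of those listed), ambiguous reads (2.23 to 2.55%) and reads aligned more than once (5.06 to 6.06%) did not enter library sizes or tests.

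Symbols came from a list of gene names by gene ID, or from GENCODE 29 where that list had none. Exon lengths and gene order came from GENCODE 29 by gene ID. The build of GENCODE 29 is not that of the counts, so no coordinates of it are given. P95H and WT clones were compared with edgeR 4.0.16 (R 4.3.3): filterByExpr, TMM scaling, a robust quasi-likelihood F test, and p-values adjusted by Benjamini-Hochberg across every tested gene (threshold 0.05). The parental line and single clones were compared with the other clones in one model of all 9 libraries, where a library with no replicate borrows the spread of the rest. DESeq2 1.42.0, limma 3.58.1 (voom with quality weights), other scalings and filters, a test against a fold of 1.2, and leaving out each clone were alternatives. The edgeR steps were tested on simulated data. CPM used TMM factors over the 9 libraries, and levels between genes were compared per kilobase of exon. Exon length was that of the merged exons of every listed transcript of a gene, which can exceed the length of the RNA present. Members described in full are those whose groups do not overlap, those called in any comparison and the 8 with the smallest p for P95H against WT, and of each other list up to 3 genes by smallest p are named. Other members are given by value as well. The members, lists and tests were chosen with earlier results of these data known. No pair of clones of a group differed by so little as to be 1 library.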

Additional observations from a re-analysis of the deposited data

Results flagged for a closer look

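In each of the 39 members, the highest and the lowest clone of each group of 4 were compared with their nearest neighbour by Dixon's ratio at its 95% critical value. Of 78 groups, 6 exceeded it, and chance flags about 1 in 20 groups. SLC2A1 was 115 CPM in W33, against 166.6 to 172.8 CPM in the other WT clones. TPI1 was 656.1 CPM in W33, against 403.8 to 432.6 CPM in the other WT clones. PGAM1 was 94.6 CPM in W33, against 82.39 to 83.45 CPM in the other WT clones, which raises the WT mean but not the lowest WT level. PDK3 was 1.334 CPM in W33, against 0.2885 to 0.3639 CPM in the other WT clones. ENO1 was 3341 CPM in W36, against 3059 to 3098 CPM in the other WT clones. BNIP3 was 14.87 CPM in P22, against 26.42 to 27.95 CPM in the other P95H clones.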

How the results depend on the processing

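The count of genes called between P95H and WT clones was 0 by edgeR, 2 with no filter on low counts, 272 by DESeq2, 59 by limma-voom and 5 with W33 and P22 left out, and 0 to 1 with single clones left out. In the clone comparisons, no filter gave 5 genes for the parental line (1 with the filter), 25 for P15 (1), 249 for P22 (88), 1 for P38 (0) and 1 for W19 (0), and a filter of 1 CPM in 4 libraries gave 0 for the parental line. With single clones left out, the count was 0 to 2 for the parental line, 31 to 48 for P22, 0 to 527 for W33 (2246 with all) and 2 to 3 for W42 (4 with all). The members called in W33 dropped to 0 (3 with all). At an unadjusted p, 4 members were lower in a test against a fold of 1.2 (10 in the main test). The estimate changed sign under limma-voom for SLC2A1 (-0.15) and BNIP3L (-0.0076), with the parental library counted as wild type for PFKM (0.041) and VEGFA (0.012), and without W33 and P22 for PFKM (0.071), SLC16A1 (-0.14), PDK3 (0.66) and P4HA2 (0.048). With single clones left out it ran from -0.22 to 0.24 for SLC2A1, -0.080 to 0.21 for PFKL, -0.10 to 0.11 for PFKM, -0.053 to 0.22 for PFKP and -0.32 to 0.30 for ALDOC. It ran from -0.070 to 0.30 for SLC16A1, -1.05 to 0.29 for PDK3, -0.37 to 0.055 for EPAS1, -0.27 to 0.15 for VEGFA, -0.019 to 0.32 for BNIP3L, -0.047 to 1.41 for ADM, -0.45 to 0.56 for NDRG1 and -0.34 to 0.036 for P4HA2. The cause of these changes was not tested. No paired analysis was possible because the groups share no replicate numbers. Depth limits CA9, PDK3 and ADM, at or near 1 CPM or below in most libraries.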
